A study of Mus musculus with 12 samples.

Results

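The nuclear-encoded subunits of the respiratory chain were followed in the mouse fibroblast cell line 3T3, with and without exposure to extracellular vesicles (EVs), the membrane-bound particles that cells release. The members were the rows whose gene symbol names a structural subunit of NADH dehydrogenase (complex I), succinate dehydrogenase (II), the cytochrome bc1 complex (III), cytochrome c oxidase (IV) or ATP synthase (V). Pseudogene rows and the assembly factors called Ndufaf were left out. This gave 84 of the 32544 rows of the table: 37 for complex I, 4 for complex II, 8 for complex III, 18 for complex IV and 17 for complex V. The symbol rule took Ndufa4 as a complex I gene, missed the complex I subunit Ndufab1 and the complex III subunit Cyc1, and kept Atp5s and Atp5sl, which carry the ATP synthase name and lie outside the core enzyme. Of the members, 77 had enough counts to be tested and 7 did not.

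All 4 groups were 3T3 cells, with 3 RNA sequencing libraries in each. The untreated group received no EVs. The shCon group received EVs for 24 h from control cells of the human breast cancer line MDA-MB-468. The shCr group received EVs from MDA-MB-468 cells in which CRIPTO, a cell-surface protein, was knocked down, and the CrOE group received EVs from MDA-MB-468 cells that overexpressed CRIPTO. The exposure was the same 24 h in the 3 EV groups, so these groups differ in the donor cells. CRIPTO was altered in the human donors, so mouse RNA of the recipients gives no check of it. The labels do not say whether the 3 libraries of a group came from separate cultures, and p-values therefore measure the spread between these libraries, which may be technical.

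The respiratory chain passes electrons from NADH and succinate to oxygen and pumps protons across the inner mitochondrial membrane, and ATP synthase uses the returning protons to make ATP. Complexes I, III, IV and V are mosaics of subunits from the nuclear genome and from mitochondrial DNA, while complex II is entirely nuclear-encoded. A core of conserved subunits carries the redox centres or the catalytic sites, and many small supernumerary subunits surround it. Several subunits of complex IV and subunit c of ATP synthase come as isoforms from separate genes, some of them restricted to heart and skeletal muscle.

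Libraries held 25960054 to 37774020 estimated counts, and levels are given as CPM, counts brought to a common library total after TMM scaling. The 13 rows of mitochondrial DNA (mt- rows) took between 0.495% and 1.70% of the counts, with the lowest shares in untreated library 1 (0.495%), shCr library 1 (0.622%) and CrOE library 2 (0.693%). Those same libraries were high in the nuclear members. shCr library 1 was the highest of its group in 71 of 77 members, untreated library 1 in 56 and CrOE library 2 in 52. In the median over the members, shCr library 1 lay 0.35 above the mean of the other 2 shCr libraries on the log2 scale, against 0.014 over all 14279 tested genes. Over the 1418 tested genes with transcripts under 1000 bases this median was 0.18. Among the members it was 0.36 in the 49 with transcripts under 1000 bases and 0.21 in the 28 longer ones. The part of transcript length was not tested. Each shCr comparison is therefore given with and without shCr library 1. Within the shCon, shCr and CrOE groups, the members' median was higher the lower the mt- share of the library. In the untreated group, library 3 (0.991%) lay slightly below library 2 (1.64%). The part of the mt- share in the results was not tested. Summed CPM of 8 fibroblast markers, all tested, was 14668 to 15452 in untreated, 16702 to 16850 in shCon, 11369 to 12949 in shCr and 4643 to 4810 in CrOE libraries. Of the lists for other cell types, 3 of 5 macrophage markers were tested and summed to 48.6 to 59.3 CPM in untreated, 82.0 to 92.5 in shCon, 129 to 193 in shCr and 4.57 to 5.96 in CrOE libraries, with Ptprc and Adgre1 near 0. Lyz2 made up most of that sum in the first 3 groups and stood at 1.25 CPM in CrOE cells, below Cd68 at 3.05 CPM. Epithelial markers reached at most 2.22 CPM in sum with Epcam at 0, endothelial markers 2.56 and muscle markers 0.721. Of 4 adipocyte markers 1 was tested, Fabp4, and the list summed to 21.4 to 26.8 CPM in untreated, 13.9 to 14.4 in shCon, 11.02 to 16.6 in shCr and 1.74 to 2.13 in CrOE libraries, with Lep at 0 and Adipoq and Plin1 near 0. The part of these markers in the results below was not tested. In bulk RNA, fewer cells of a type and less RNA per cell cannot be told apart.

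**Figure D1:**
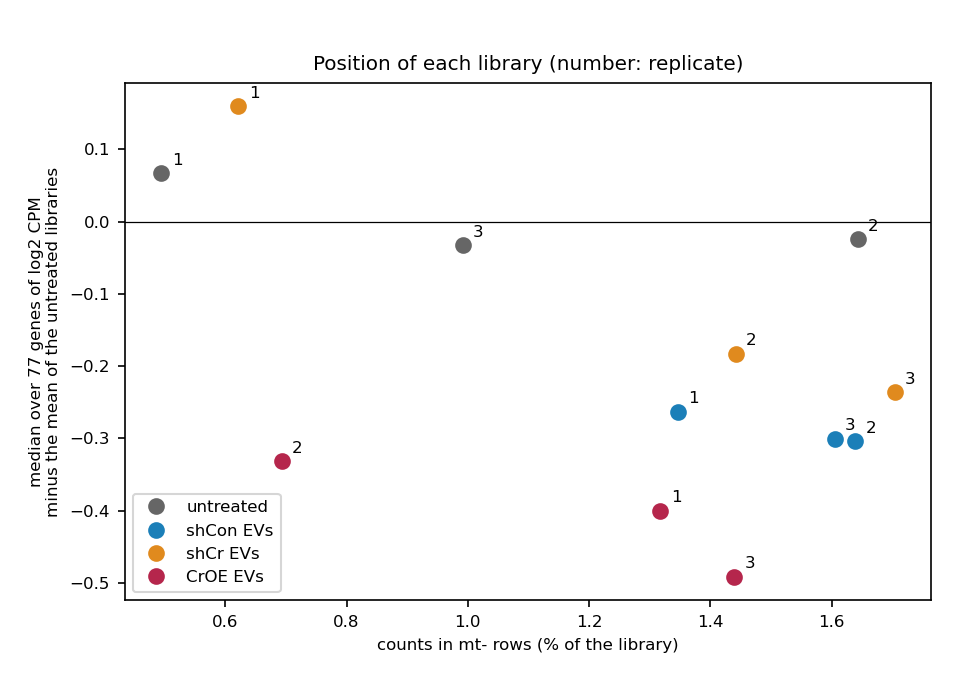
Share of a library's counts in the mt- rows (x axis, %) against the median over the 77 tested members of log2 CPM minus the untreated mean (y axis), 1 point per library, coloured by group. Within the shCr group the library with 0.622% in mt- rows lies above the other 2, and the 3 shCon libraries lie close together.

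The sequences just upstream of the genes are shown because many members moved together. RefSeq windows on build GRCm38.p6, from 250 bases before to 50 after the start of transcription, were found for 69 of the 84 members. They were searched on both strands for 4 motifs of factors known for control of respiratory genes: GCGCA, any base and GCGC for NRF1, CCGGAAG for ETS factors such as GABP, ATGGCGGC for YY1 and TNAAGGTCA for ERR-alpha. The NRF1 motif was found in 17 members (24.6%), against 5.19% of all 27025 windows and 11% of the windows of tested genes. The ETS motif was found in 16 members (23.2%), against 9.93% of all windows and 19.1% of those of tested genes. The YY1 motif was found in 7 (10.1%; 2.6% and 5.4%) and the ERR-alpha motif in 3 (4.35%; 1.43% and 0.884%). In all, 35 members held at least 1 of the 4, and no member had matches of 2 motifs that overlapped. The following 5 windows were chosen after the values were seen. They show a match of the NRF1, ETS and ERR-alpha motifs and, for contrast, members with none in the printed bases. They run 5′ to 3′ on the strand of the gene and stop before the first exon, and capitals mark the match.
Ndufs5: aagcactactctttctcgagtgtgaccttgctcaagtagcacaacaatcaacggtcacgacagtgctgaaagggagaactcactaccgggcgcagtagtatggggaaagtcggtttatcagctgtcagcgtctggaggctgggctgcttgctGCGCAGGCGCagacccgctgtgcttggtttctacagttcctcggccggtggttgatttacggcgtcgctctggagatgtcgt
Uqcr11: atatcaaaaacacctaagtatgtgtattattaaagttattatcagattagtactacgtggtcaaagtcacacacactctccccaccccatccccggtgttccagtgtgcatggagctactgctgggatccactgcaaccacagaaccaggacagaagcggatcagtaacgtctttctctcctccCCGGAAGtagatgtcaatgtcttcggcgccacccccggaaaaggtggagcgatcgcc
Atp5g3: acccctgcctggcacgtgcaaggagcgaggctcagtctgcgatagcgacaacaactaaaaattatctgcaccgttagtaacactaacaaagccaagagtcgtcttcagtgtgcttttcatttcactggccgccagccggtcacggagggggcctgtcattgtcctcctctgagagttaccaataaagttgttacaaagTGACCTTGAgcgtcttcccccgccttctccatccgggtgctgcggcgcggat
Cox7b: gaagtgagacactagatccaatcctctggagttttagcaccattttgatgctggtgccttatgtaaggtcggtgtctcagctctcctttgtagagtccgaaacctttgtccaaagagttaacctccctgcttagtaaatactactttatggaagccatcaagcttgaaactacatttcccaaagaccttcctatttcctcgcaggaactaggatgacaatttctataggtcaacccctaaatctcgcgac
Cox7a2l: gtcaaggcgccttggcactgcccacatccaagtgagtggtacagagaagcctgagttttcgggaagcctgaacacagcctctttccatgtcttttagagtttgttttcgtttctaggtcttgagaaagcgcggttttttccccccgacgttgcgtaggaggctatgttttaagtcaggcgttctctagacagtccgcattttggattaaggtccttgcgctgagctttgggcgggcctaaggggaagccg

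The window of Ndufs5, a small complex I subunit, lies on the minus strand at chr4:123718203-123718436 and holds the NRF1 motif. That of Uqcr11, a small complex III subunit, lies on the minus strand at chr10:80406831-80407071 and holds the ETS motif. That of Atp5g3, a gene of ATP synthase subunit c, lies on the minus strand at chr2:73911327-73911576 and holds the ERR-alpha motif on its reverse strand. The printed bases of Cox7b (plus strand, chrX:106015450-106015699) and Cox7a2l (minus strand, chr17:83514334-83514583) hold none of the 4. The 50 bases after the start, which were also searched, are not printed. Levels of Uqcr11, Atp5g3 and Cox7b fell after CrOE EVs, and that of Cox7a2l rose, with the values given by complex below. Ndufs5 stood at 38.6, 34.8 and 34.3 CPM in untreated and 30.9, 34.8 and 29.9 in CrOE libraries, which overlapped, and was not called there (log2 fold change -0.17, adjusted p = 0.0868). Among tested members with a window, the NRF1 motif was present in 12 of the 45 that fell after CrOE EVs, 0 of the 3 that rose and 5 of the 17 not called. The ETS motif was present in 14, 0 and 2 of these. A match of letters is a description and does not show binding.

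CrOE EVs were accompanied by lower RNA of most subunits, and shCon EVs by a smaller fall. Summed over all 84 members, the level was 7619, 7200 and 7170 CPM in untreated libraries 1, 2 and 3, and 6074, 6018 and 6053 after shCon EVs. The shCr libraries held 7930, 6511 and 6302 CPM and the CrOE libraries 5557, 5743 and 5371. The shCon and CrOE libraries all lay below the untreated ones and did not overlap with each other, while the shCr libraries spanned the untreated range. Group means were 7330 ± 251, 6048 ± 27.9, 6914 ± 886 and 5557 ± 186 CPM (SD, n = 3), so the EV groups stood at 0.825, 0.943 and 0.758 of the untreated mean. Of the members tested, 51 fell and 5 rose in CrOE against untreated cells by edgeR's quasi-likelihood F-test at an adjusted p under 0.05, which is the call used throughout. Over all tested genes, 73.7% were called there, 36.7% higher and 37% lower. In shCon against untreated cells 46 members fell and 3 rose, and of all genes 38.1% were called, 18% higher and 20.2% lower. In shCr against untreated cells 13 fell and 5 rose, and of all genes 37.3% were called, 18.4% higher and 18.8% lower. Without shCr library 1, 49 fell and 5 rose, with 46% of all genes called, 22.3% higher and 23.7% lower. The members' median log2 fold change was -0.30 in shCon, -0.06 in shCr (-0.23 without library 1) and -0.42 in CrOE, beside medians between 0.004 and 0.02 over all tested genes in the 6 comparisons. As shares of the 77 tested members, 72.7% were called in CrOE cells, close to the 73.7% of all genes, but 66.2% were lower against 37% of all genes. In shCon cells 59.7% were lower against 20.2%, and in shCr cells, with library 1 included, 16.9% against 18.8%. Without shCr library 1, the 49 lower members in shCr cells stood beside 23.7% of all genes lower. The 3 contrasts share the untreated libraries.

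**Figure D2:**
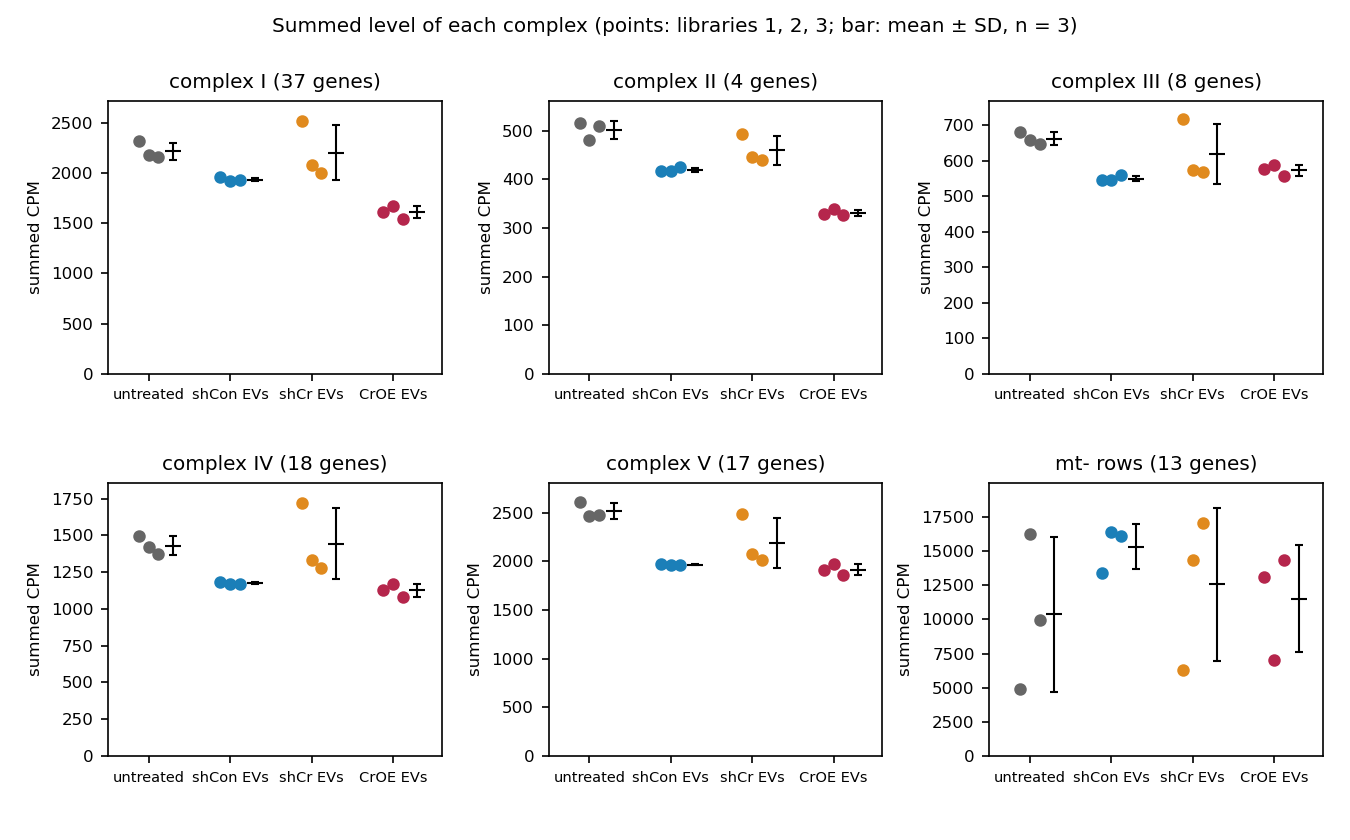
Summed CPM (y axis, from 0) of all members of complexes I to V, tested or not, and of the mt- rows by group, with points for libraries and the mean ± SD of 3 libraries. For complex V the untreated mean was 2517 CPM and the CrOE mean 1917 CPM, and the mt- rows overlap between all groups.

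Each of the 5 complexes held members that fell after CrOE and after shCon EVs. Summed CPM of complex I was 2217 ± 84.8 in untreated, 1934 ± 18.3 in shCon, 2201 ± 276 in shCr and 1609 ± 62.3 in CrOE cells (SD, n = 3 here and in the next 4 sums). Complex II went from 502 ± 18.7 in untreated to 420 ± 4.59 in shCon, 460 ± 29.4 in shCr and 331 ± 6.54 in CrOE cells. Complex III stood at 663 ± 18.1, 550 ± 7.92, 620 ± 83.8 and 574 ± 15.9 in the same order, and was the complex whose CrOE mean was above its shCon mean. Complex IV stood at 1431 ± 62.0, 1176 ± 8.38, 1444 ± 240 and 1126 ± 44.7. Complex V stood at 2517 ± 80.3, 1968 ± 2.07, 2189 ± 257 and 1917 ± 57.3. In CrOE against untreated cells, complex I had 24 of 36 members lower and 0 higher (median log2 fold change -0.37), complex II 3 of 4 lower (-0.66), complex III 4 of 8 lower and 1 higher (-0.39), complex IV 7 of 12 lower and 3 higher (-0.47) and complex V 13 of 17 lower and 1 higher (-0.50). Counting Ndufa4 with complex IV instead of complex I gave 23 and 8 lower. Without shCr library 1, which is in neither group of that comparison but changes the fit, the filter (14566 genes tested) and the adjustment, 7 members of complex III were lower in CrOE cells instead of 4. In shCon against untreated cells the counts lower were 20 in complex I, 3 in II, 6 in III, 8 in IV and 9 in V. The complex I count there was 10 without untreated library 1, 12 without untreated library 3, and 13, 11 and 11 without shCon library 1, 2 and 3. That of complex III was 3 without shCon library 1, and that of complex V was 14 without shCr library 1.

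**Figure D3:**
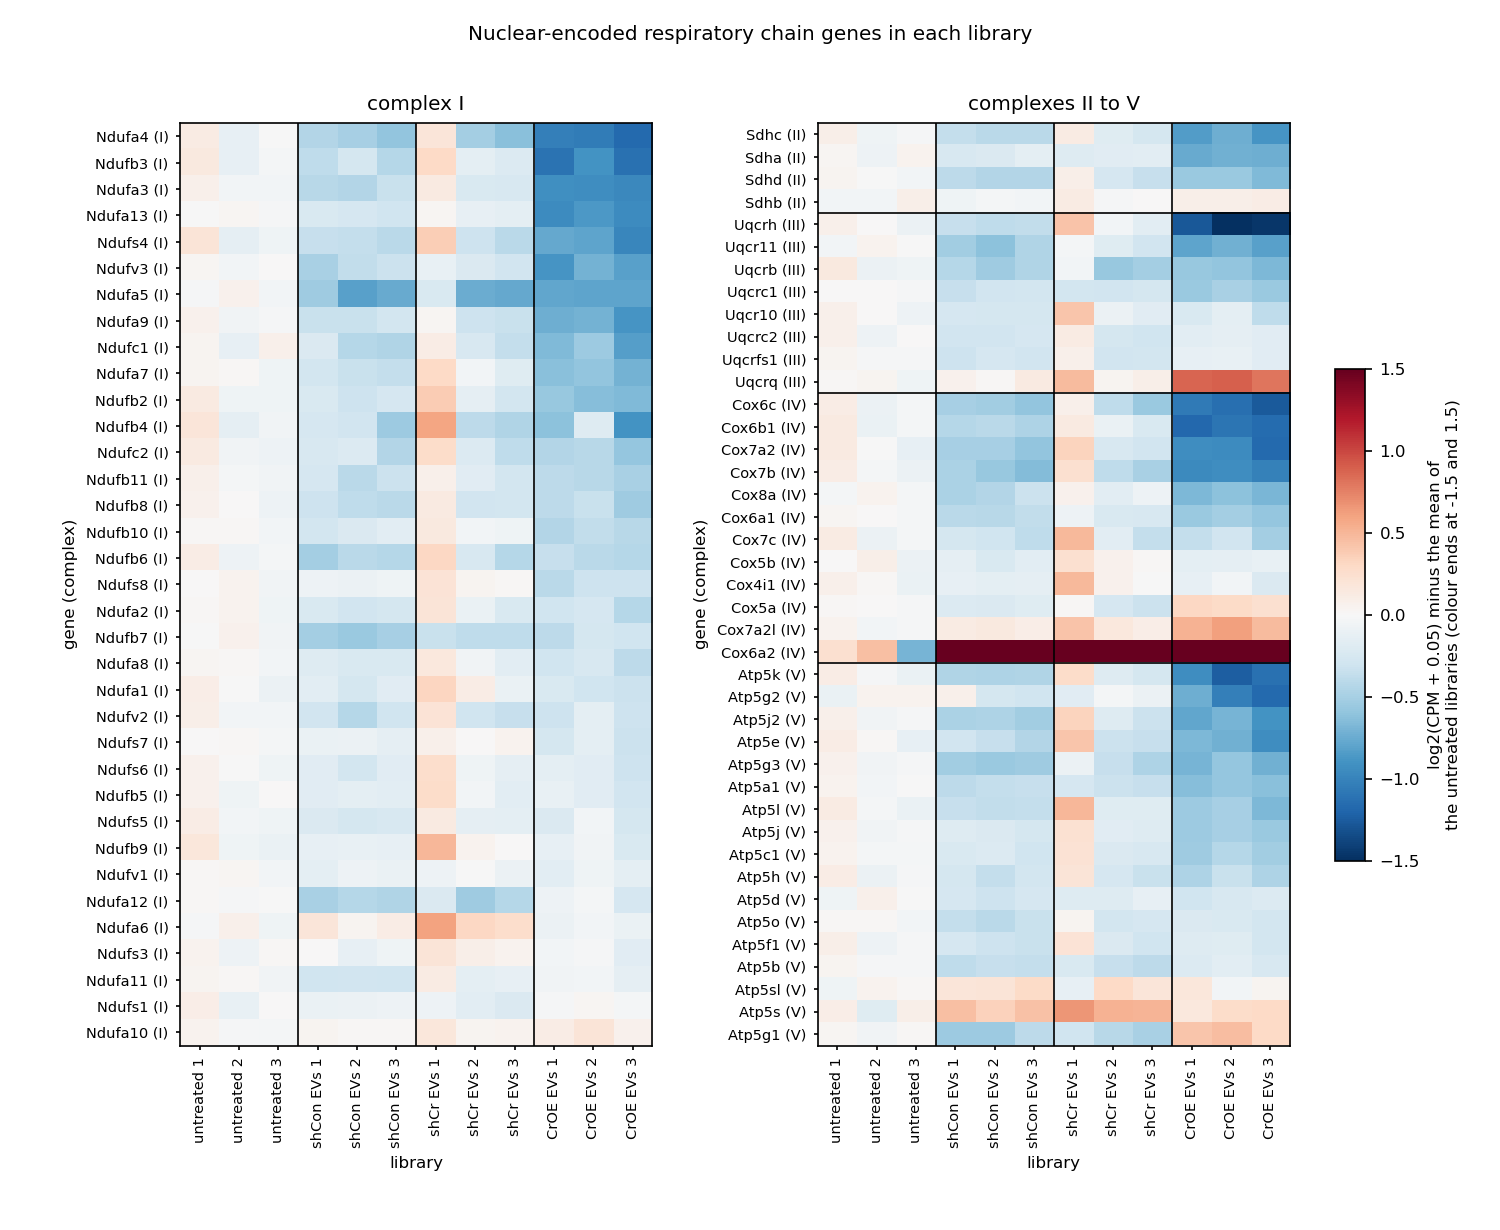
Log2(CPM + 0.05) minus the untreated mean for 76 of the 77 tested members (rows) in the 12 libraries (columns), complex I on the left and complexes II to V on the right, with colours that end at ±1.5. The CrOE columns are mostly below the untreated mean, with Cox6a2, Uqcrq, Cox7a2l, Cox5a and Atp5g1 above it.

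Levels per transcript length (CPM per kb) in untreated cells set the scale of the members. The median was 62.7 CPM per kb in complex I, 59.6 in II, 101 in III, 129 in IV and 115 in V. The highest was Cox4i1, which binds the catalytic subunits of complex IV, at 493 CPM per kb, followed among the genes described here by Atp5b (357), Cox8a (285), Cox6a1 (248) and Atp5g3 (245). The lowest tested member was Cox6a2, at 0.329 CPM per kb. These are levels, and say nothing of differences between groups.

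Core subunits of complex I hold its flavin and iron-sulfur centres. Of the 7 tested, 4 fell and 0 rose in CrOE against untreated cells, with a median log2 fold change of -0.24. Those described here changed by little or were not called, but they do not cover every core member and do not give the range of the class. Whether reads were counted by strand is not stated. Among the members described below, the exons of Ndufs1, Ndufs3, Uqcrc2, Cox4i1, Cox5a, Cox6c, Cox6a2, Ndufa4l2, Atp5a1 and Atp5l overlap a gene on the opposite strand. Ndufs8, an iron-sulfur subunit, fell from 60.2, 61.7 and 57.4 CPM in untreated to 45.3, 48.3 and 48.2 CPM in CrOE libraries (log2 fold change -0.34 ± 0.06, adjusted p = 0.00017). Ndufs7, also an iron-sulfur subunit, fell from 38.0, 38.3 and 37.2 to 31.5, 34.2 and 30.3 CPM (-0.24 ± 0.06, adjusted p = 0.0015). In neither gene did the untreated and CrOE libraries overlap. Ndufs1, the largest iron-sulfur subunit, and Ndufs3 were not called in CrOE against untreated cells, at -0.01 (adjusted p = 0.92) and -0.08 (adjusted p = 0.27). Of the 31-base stretches of Ndufs3, 49.3% occur in other genes, so its count is uncertain. Ndufv2, a flavoprotein partner, stood at -0.26 (adjusted p = 0.07) and passed the threshold when shCr library 1 or shCr library 3 was left out (adjusted p = 0.0013 and 0.046). Ndufv1, which binds the flavin, was called at -0.12 (adjusted p = 0.037) but not without untreated library 1 (-0.11, adjusted p = 0.1), untreated library 2 (-0.11, adjusted p = 0.086), shCon library 2 (-0.12, adjusted p = 0.05), CrOE library 1 (-0.10, adjusted p = 0.13) or CrOE library 3 (-0.11, adjusted p = 0.12).

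Of the 29 supernumerary subunits of complex I, 20 fell and 0 rose in CrOE against untreated cells, with log2 fold changes from -1.08 to 0.12 and a median of -0.42. Ndufa4, which is also found with complex IV, stood at 141, 119 and 129 CPM in untreated, 95.7, 91.4 and 86 in shCon, 147, 91.2 and 84.0 in shCr and 63.6, 62.5 and 57.6 in CrOE libraries. The CrOE libraries were the lowest, and the shCon libraries lay between them and the untreated ones. The shCr libraries reached from just below the shCon range to above the untreated range. Its log2 fold change in CrOE against untreated cells was -1.08 ± 0.16 (adjusted p = 5.2e-05). Ndufa5, a subunit of the matrix arm, was lower in all 3 EV groups, from 25.8, 27.5 and 25.4 CPM in untreated to 18.0, 14.9 and 15.5 in shCon, 22.5, 15.6 and 15.4 in shCr and 15.2, 15.2 and 15.2 in CrOE libraries. No EV library reached the untreated range, and it fell by log2 fold changes of -0.70 ± 0.13, -0.56 ± 0.13 and -0.79 ± 0.13 (adjusted p = 0.00083, 0.0033 and 8.5e-05). Ndufb7, a subunit on the intermembrane side, likewise fell in the 3 groups, by -0.53, -0.37 and -0.32, from 62.8, 65.9 and 61.2 CPM in untreated to between 42.9 and 52.7 CPM in the EV libraries.

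Ndufa12 and Ndufa6 followed other orders. Ndufa12, a matrix-arm subunit, stood at 28.6, 28.0 and 28.2 CPM in untreated, 20.3, 21 and 20.8 in shCon, 24.3, 19.5 and 21 in shCr and 26.9, 27.7 and 23.7 in CrOE libraries. It fell in shCon (-0.45, adjusted p = 0.00092) and shCr (-0.39, adjusted p = 0.0023), stood at -0.12 in CrOE, and was higher in CrOE than in shCon cells by 0.34. Of its 31-base stretches 29.3% are shared with other genes. Ndufa6, another matrix-arm subunit, stood at 52.5, 56.1 and 51.0 CPM in untreated and 80.8, 65.9 and 63.8 in shCr libraries, with no overlap, and rose by 0.40 ± 0.08 (adjusted p = 0.0019), while CrOE cells, at 49.98, 51.6 and 49.5 CPM, were lower than shCr cells by -0.48. Ndufa10, a supernumerary subunit with the highest fold change of its class in CrOE cells, was not called at 0.12 (adjusted p = 0.051) and passed the threshold without shCr library 1 (0.12, adjusted p = 0.022) or CrOE library 3 (0.15, adjusted p = 0.037).

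In complex II, the flavoprotein and the membrane anchors fell after CrOE EVs and the iron-sulfur subunit did not. Sdha, the flavoprotein that oxidises succinate, stood at 241, 223 and 244 CPM in untreated, 200, 204 and 213 in shCon, 206, 210 and 211 in shCr and 140, 143 and 141 in CrOE libraries. All EV libraries were below the untreated ones, with CrOE lowest and apart. Its log2 fold changes stood at -0.20 (adjusted p = 0.005), -0.18 (adjusted p = 0.011) and -0.74 ± 0.05 (adjusted p = 1.3e-08). Sdhc, a membrane anchor, stood at 132, 118 and 122 CPM in untreated, 96.8, 93.2 and 93.2 in shCon, 135, 109 and 103 in shCr and 69.1, 74.7 and 66.8 in CrOE libraries. It fell in shCon (-0.39, adjusted p = 0.0039) and in CrOE (-0.82 ± 0.09, adjusted p = 2.4e-06), and so did the other anchor, Sdhd (-0.42, adjusted p = 0.0025, and -0.59 ± 0.09, adjusted p = 5.3e-05). In shCr cells Sdhc and Sdhd were not called, at -0.10 and -0.16, and without shCr library 1 both were, at -0.23 (adjusted p = 0.0061) and -0.30 (adjusted p = 0.00043). Sdhb, the iron-sulfur subunit, stood at 61.5, 61.7 and 67.2 CPM in untreated and 67.2, 67.5 and 68.3 in CrOE libraries, a log2 fold change of 0.09 (adjusted p = 0.14).

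Complex III held members that moved in opposite directions. Uqcrh, the hinge protein that helps cytochrome c to dock, stood at 71.8, 68.3 and 64.1 CPM in untreated, 53.3, 52.4 and 52.9 in shCon, 91.5, 66.2 and 60.9 in shCr and 28.1, 24.0 and 24.6 in CrOE libraries. The CrOE libraries were the lowest without overlap, and the log2 fold change was -1.41 ± 0.13 against untreated (adjusted p = 3.4e-07), -1.05 against shCon and -1.51 against shCr cells, the largest fall of the tested members in CrOE against untreated. Uqcrq, a small subunit beside cytochrome b, stood at 87.7, 89 and 82.3 CPM in untreated, 89.9, 87.5 and 94.4 in shCon, 120, 88.6 and 91.6 in shCr and 159, 161 and 151 in CrOE libraries. Here the CrOE libraries were the highest without overlap, with a log2 fold change of 0.86 ± 0.09 against untreated (adjusted p = 2.6e-06), 0.79 against shCon (adjusted p = 6.1e-06) and 0.65 against shCr (adjusted p = 3.4e-05). Uqcr11, whose ETS-containing window is shown above, stood at 39.1, 41.7 and 39.95 CPM in untreated, 28.1, 26.3 and 29.4 in shCon, 39.4, 35.4 and 33.0 in shCr and 23.3, 24.3 and 22.9 in CrOE libraries. It fell in shCon (-0.53, adjusted p = 8e-05) and further in CrOE (-0.77 ± 0.07, adjusted p = 4.3e-07).

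Of the larger subunits of complex III, Uqcrc1, a core protein, fell in all 3 EV groups. It stood at 184, 185 and 182 CPM in untreated, 145, 151 and 152 in shCon, 152, 150 and 154 in shCr and 125, 132 and 125 in CrOE libraries, with log2 fold changes of -0.30 ± 0.04 (adjusted p = 0.00013), -0.27 (adjusted p = 0.00024) and -0.53 ± 0.04 (adjusted p = 1.2e-07). Every EV library was below the untreated ones and every CrOE library below the other EV libraries. Uqcrc2, the other core protein, and Uqcrfs1, the Rieske iron-sulfur protein, stood at -0.16 (adjusted p = 0.13) and -0.13 (adjusted p = 0.14) in CrOE cells. Both passed the threshold there without shCr library 1, at -0.16 (adjusted p = 0.0037) and -0.14 (adjusted p = 0.0044). Cyc1, the cytochrome c1 gene that the symbol rule missed, was lower in shCon (-0.33) and shCr (-0.23) and higher in CrOE cells (0.26) than in untreated cells.

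**Figure D4:**
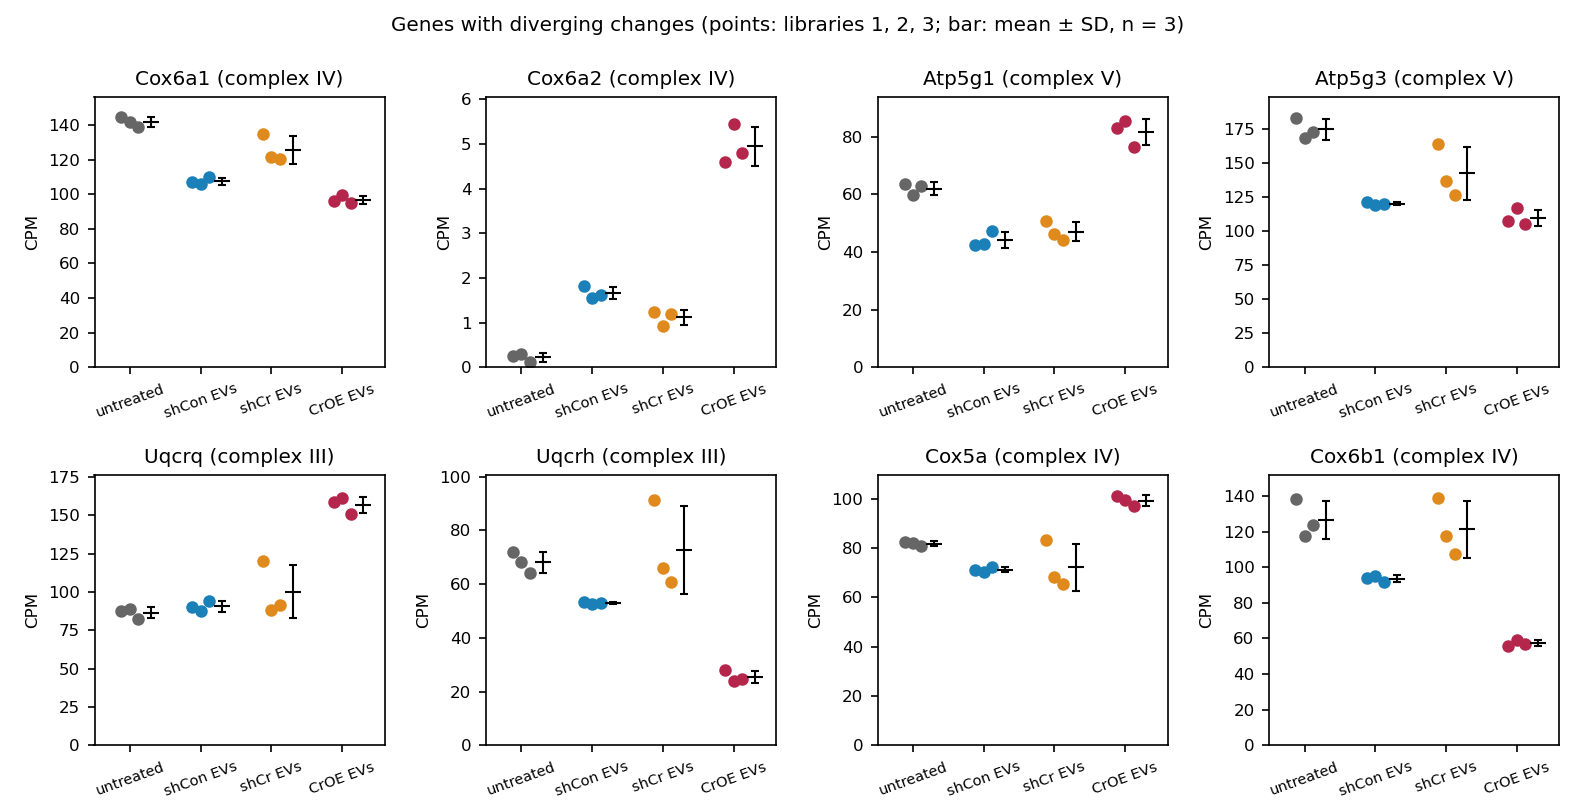
CPM by library (points) with group means for Cox6a1, Cox6a2, Atp5g1, Atp5g3, Uqcrq, Uqcrh, Cox5a and Cox6b1, each on its own axis. In Uqcrq, Cox6a2, Cox5a and Atp5g1 the 3 CrOE libraries are the highest, and in Uqcrh, Cox6a1, Atp5g3 and Cox6b1 the lowest is a CrOE library.

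In complex IV the largest falls in CrOE against untreated cells were those of Cox6c, Cox6b1, Cox7a2 and Cox7b. Cox6b1, a subunit on the intermembrane face, stood at 138, 118 and 123 CPM in untreated, 93.8, 95.4 and 91.5 in shCon, 139, 117 and 107 in shCr and 55.9, 59.1 and 56.7 in CrOE libraries. Cox6c, a small membrane subunit, stood at 122, 107 and 111 CPM in untreated, 79.7, 78.7 and 74.9 in shCon, 119, 86.6 and 76.7 in shCr and 53.9, 51.7 and 47.3 in CrOE libraries. For both genes the order was untreated, shCon and CrOE without overlap, with shCr library 1 beside the untreated libraries. The log2 fold changes in CrOE cells were -1.14 ± 0.09 for Cox6b1 (adjusted p = 6.6e-08) and -1.15 ± 0.13 for Cox6c (adjusted p = 3.1e-06), and in shCon cells -0.44 and -0.54 (adjusted p = 0.0015 and 0.0048). Cox7b, whose printed bases hold none of the motifs, stood at 124, 113 and 109 CPM in untreated, 83.0, 77.3 and 73.1 in shCon, 136, 88.3 and 82.4 in shCr and 59.3, 60.0 and 56.8 in CrOE libraries. It fell in shCon (-0.57, adjusted p = 0.0086) and CrOE (-0.97 ± 0.15, adjusted p = 5.3e-05), as did Cox7a2 (-0.53 and -1.01 ± 0.14, adjusted p = 0.0092 and 2.4e-05) and Cox8a (-0.41 and -0.66 ± 0.06, adjusted p = 0.00026 and 7.5e-07), both small membrane subunits. In shCr against untreated cells Cox6b1, Cox6c, Cox7b and Cox7a2 were not called, at -0.06, -0.27, -0.17 and -0.04, and without shCr library 1 they were, at -0.17, -0.48, -0.44 and -0.27.

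Members of complex IV that did not follow this fall were Cox4i1, Cox5a, Cox5b and Cox7a2l. Cox4i1 stood at 386, 372 and 343 CPM in untreated, 336, 331 and 334 in shCon, 515, 383 and 366 in shCr and 338, 356 and 317 in CrOE libraries, with untreated and CrOE libraries overlapping and a log2 fold change of -0.12 (adjusted p = 0.3), or -0.13 (adjusted p = 0.041) without shCr library 1. Cox5a, a matrix-side subunit next to Cox4i1, stood at 82.6, 81.9 and 80.8 CPM in untreated, 71.1, 70.1 and 72.1 in shCon, 83.0, 68.4 and 65.3 in shCr and 101, 99.7 and 97 in CrOE libraries. It rose in CrOE cells without overlap, by 0.28 ± 0.07 over untreated (adjusted p = 0.0039), 0.48 over shCon (adjusted p = 6.2e-05) and 0.46 over shCr (adjusted p = 8.6e-05). Cox7a2l, which takes part in joining complexes III and IV into supercomplexes, stood at 112, 105 and 106 CPM in untreated, 117, 119 and 115 in shCon, 145, 120 and 115 in shCr and 155, 164 and 150 in CrOE libraries. It rose in CrOE cells by 0.54 ± 0.08 (adjusted p = 3.1e-05) over untreated and by 0.42 and 0.30 over shCon and shCr (adjusted p = 0.00029 and 0.003). Cox5b, a zinc-binding subunit, stood at -0.13 in CrOE against untreated cells (adjusted p = 0.082) and passed the threshold without untreated library 3 (-0.18, adjusted p = 0.035) or shCr library 1 (-0.13, adjusted p = 0.022). Of the 31-base stretches, 28.7% of Cox5b and 21.4% of Cox7a2l are shared with other genes.

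The isoform pair Cox6a1 and Cox6a2 moved apart. Cox6a1, the isoform of most tissues, stood at 145, 142 and 139 CPM in untreated, 107, 106 and 110 in shCon, 135, 121 and 120 in shCr and 96.0, 99.5 and 95.1 in CrOE libraries. It fell in shCon (-0.40 ± 0.05, adjusted p = 6.5e-05) and CrOE (-0.55 ± 0.05, adjusted p = 6.3e-07), and 23.8% of its 31-base stretches are shared. Cox6a2, the heart and skeletal muscle isoform, stood at 0.256, 0.305 and 0.110 CPM in untreated, 1.82, 1.56 and 1.62 in shCon, 1.23, 0.929 and 1.19 in shCr and 4.6, 5.44 and 4.80 in CrOE libraries, from between 3 and 187 counts. Each EV group lay above the untreated libraries, and CrOE above the other EV groups, without overlap. The log2 fold changes over untreated cells were 2.88 ± 0.27 in shCon (adjusted p = 3.5e-06), 2.31 ± 0.28 in shCr (adjusted p = 3.1e-05) and 4.45 ± 0.24 in CrOE (adjusted p = 2.1e-09), and 1.57 ± 0.17 in CrOE over shCon (adjusted p = 3e-06). Between shCr and shCon it stood at -0.57 ± 0.20 (adjusted p = 0.096). Its share of the summed CPM of the pair was 0.157 ± 0.0697% in untreated, 1.53 ± 0.129% in shCon, 0.883 ± 0.113% in shCr and 4.85 ± 0.309% in CrOE cells (SD, n = 3), so Cox6a1 made up most of the pair in each group. Itgad, an integrin gene, overlaps Cox6a2 on the opposite strand and stood at 0.590 to 0.761 CPM in CrOE libraries and at most 0.166 in the others. Its part in the Cox6a2 count was not tested. The most like members over the 12 libraries, as a description, were Cox7a2l (Pearson's r 0.83, Spearman's rho 0.80), Uqcrq (0.80 and 0.81) and Ndufa10 (0.66 and 0.63) on log2 CPM, in libraries that share groups and depth.

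The 7 members below the filter are mostly isoforms restricted to other tissues. Rounded counts over the 12 libraries were 1 to 5 for Cox4i2, an isoform of lung and of low oxygen, 1 to 10 for Cox7a1 and 0 to 3 for Cox8b, which are muscle isoforms, and 0 to 3 for Cox6b2, a testis isoform. Cox7b2 and Cox8c were at 0 in every library. Ndufa4l2, known as a hypoxia-induced paralog of Ndufa4, had 0, 2 and 1 counts in untreated, 8, 4 and 8 in shCon, 1, 3 and 1 in shCr and 6, 5 and 6 in CrOE libraries. These counts are too low for a test here.

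In ATP synthase, all 5 members of the catalytic F1 head and its central stalk fell after CrOE EVs and 3 after shCon EVs. Atp5a1, the alpha subunit, stood at 539, 504 and 517 CPM in untreated, 396, 407 and 411 in shCon, 436, 417 and 409 in shCr and 333, 349 and 336 in CrOE libraries. Every EV library lay below the untreated ones, and CrOE was lowest without overlap. Its log2 fold changes stood at -0.36 (adjusted p = 6.3e-05), -0.31 (adjusted p = 0.00023) and -0.62 ± 0.05 (adjusted p = 7.3e-08). Atp5b, the beta subunit, stood at 700, 672 and 677 CPM in untreated, 526, 536 and 533 in shCon, 584, 539 and 520 in shCr and 591, 612 and 580 in CrOE libraries. It fell in each EV group, by -0.36, -0.32 and -0.20 (adjusted p = 0.00012, 0.00031 and 0.003), and unlike Atp5a1 it was higher in CrOE than in shCon cells, by 0.16 (adjusted p = 0.012). Atp5c1, the gamma subunit of the rotor, fell in CrOE cells by -0.50 ± 0.10 (adjusted p = 0.00057).

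**Figure D5:**
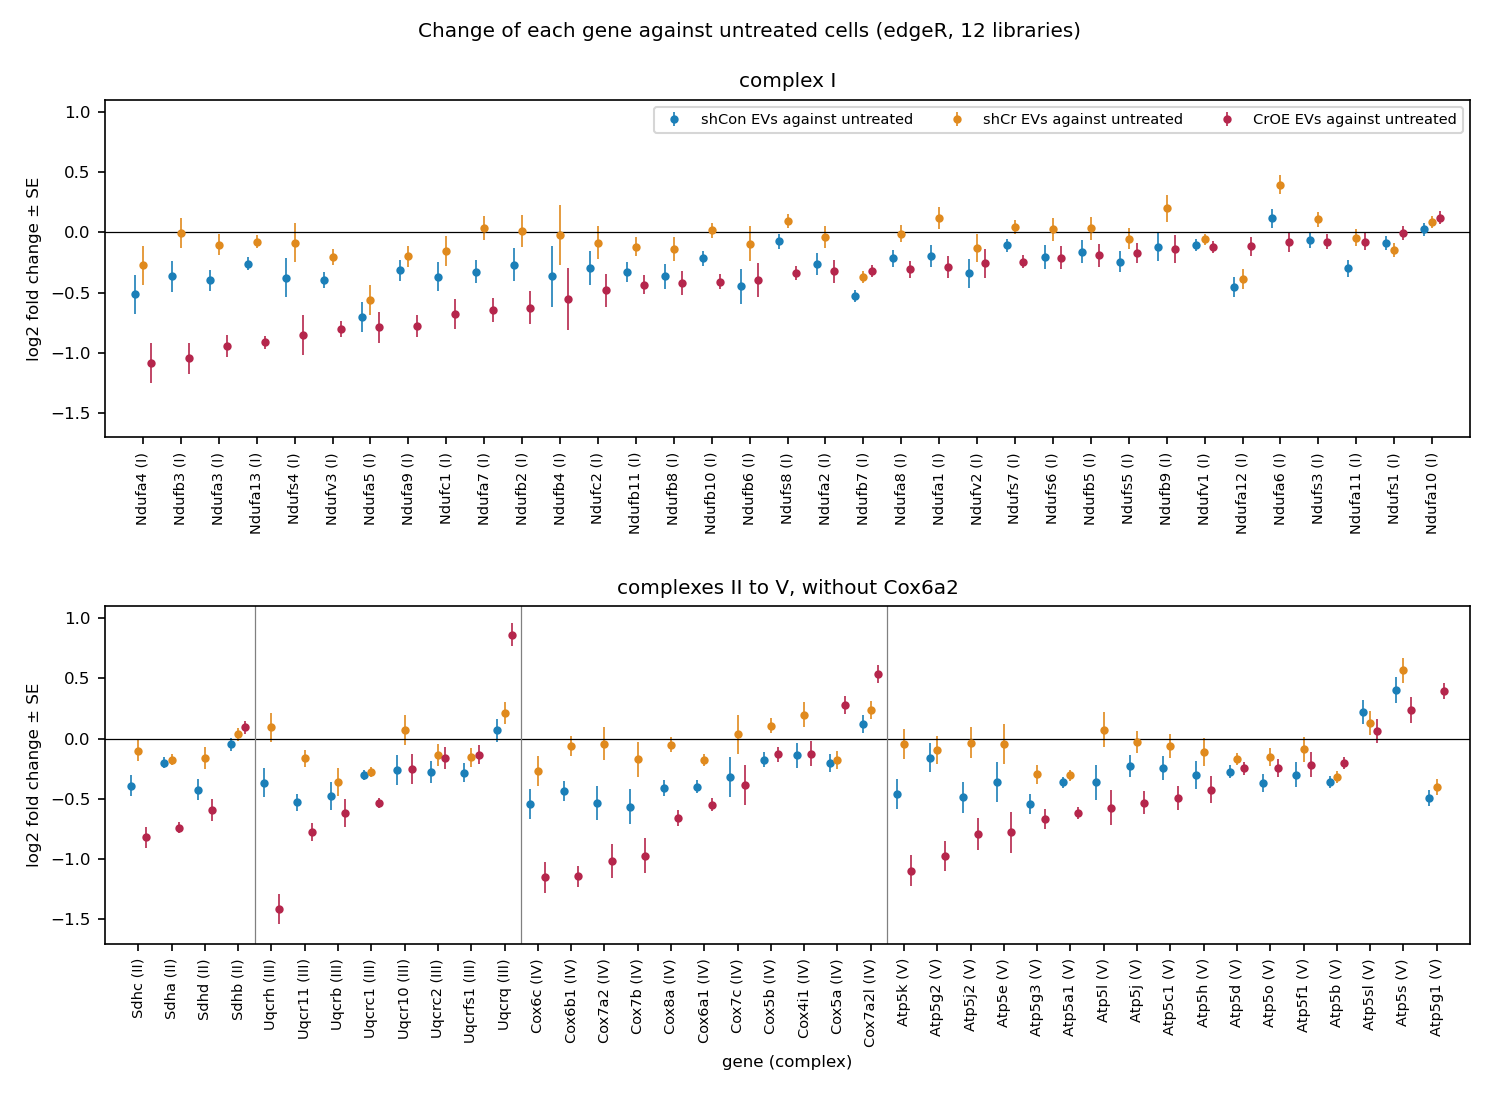
Log2 fold change ± SE of tested members against untreated cells (y axis) by complex, for the shCon, shCr and CrOE groups. Left out are Cox6a2, whose value of 4.45 in CrOE is off the scale, and the 1 tested member not reported here by itself. In CrOE cells most points are below 0 in every complex, from -1.41 for Uqcrh upwards, and Uqcrq, Cox7a2l, Atp5g1 and Cox5a are called above it.

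Outside F1, 3 of 4 peripheral stalk members and 3 of 3 supernumerary membrane subunits fell in CrOE cells. Atp5k, subunit e, stood at 44.5, 40.9 and 38.6 CPM in untreated, 30.2, 29.9 and 30.1 in shCon, 50.1, 36.0 and 34.2 in shCr and 21.6, 17.5 and 19.0 in CrOE libraries. Its log2 fold change was -0.46 in shCon (adjusted p = 0.012) and -1.09 ± 0.13 in CrOE (adjusted p = 4.8e-06), with no overlap between these 3 groups. Several genes of these classes share much of their sequence with other genes, up to 69.6% of the 31-base stretches of Atp5l, and their counts are uncertain, as are those of 15 members in all with at least 20% shared.

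The 3 genes of subunit c, the proton-carrying ring, encode the same mature protein and did not move together. Atp5g3 stood at 183, 168 and 173 CPM in untreated, 121, 119 and 120 in shCon, 164, 137 and 126 in shCr and 107, 117 and 106 in CrOE libraries, and fell in each EV group, by -0.54 ± 0.08, -0.30 and -0.67 ± 0.08 (adjusted p = 0.00021, 0.012 and 7.1e-06). Atp5g2 stood at 12.1, 13.4 and 13.5 CPM in untreated and 7.77, 6.37 and 5.76 in CrOE libraries, where it fell by -0.97 ± 0.12 (adjusted p = 1e-05), and 40.2% of its 31-base stretches are shared. Atp5g1 stood at 63.6, 59.7 and 63.0 CPM in untreated, 42.4, 42.7 and 47.4 in shCon, 50.6, 46.4 and 44.1 in shCr and 83.0, 85.4 and 76.5 in CrOE libraries. It was below untreated in every shCon and shCr library and above it in every CrOE library. The log2 fold changes were -0.49 ± 0.07 in shCon (adjusted p = 0.00011), -0.40 ± 0.07 in shCr (adjusted p = 0.00048) and 0.40 ± 0.07 in CrOE (adjusted p = 0.00014), and CrOE exceeded shCon by 0.89 ± 0.07 (adjusted p = 8.2e-08) and shCr by 0.80 ± 0.07 (adjusted p = 2e-07). Its share of the summed CPM of the 3 genes was 24.8 ± 0.378% in untreated, 25.1 ± 1.39% in shCon, 23.4 ± 0.906% in shCr and 41.2 ± 0.585% in CrOE cells (SD, n = 3). Per transcript length, these shares were 27.5%, 27.6%, 25.9% and 44.8%. Atp5s, known as a coupling factor, rose in shCon (0.41, adjusted p = 0.01) and shCr cells (0.57, adjusted p = 0.001), from 3.16 to 3.88 CPM in untreated to 4.58 to 4.94 and 5.17 to 5.75 CPM.

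The EV groups were also compared directly with each other. The only control donors among the 4 groups were those of shCon, with no separate control for the CRIPTO-overexpressing donors. In the CrOE contrasts, CRIPTO and other differences between the donors cannot be told apart. In CrOE against shCon cells, 32 members fell and 10 rose, with a median log2 fold change of -0.14. Of all genes 72.6% were called, 36.5% higher and 36.1% lower, against 54.5% of the members called. The members' share of lower calls, 41.6%, was near that of all genes. Their share of higher calls, 12.987%, was below the 36.5% of all genes. The lower calls numbered 15 of 36 in complex I, 2 of 4 in II, 3 of 8 in III, 6 of 12 in IV and 6 of 17 in V. In CrOE against shCr cells, 52 members fell and 7 rose, with a median of -0.33 (-0.21 without shCr library 1), and of all genes 73.9% were called, 36.9% higher and 37% lower, against 67.5% lower among the members. There, 25 members of complex I, 3 of II, 4 of III, 9 of IV and 11 of V fell. The genes with the largest rises in both contrasts were Cox6a2, Atp5g1, Uqcrq and Cox5a, and Uqcrh and Cox6b1 were among the largest falls in each. The 2 contrasts share the CrOE libraries.

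In shCr against shCon cells, 11 members rose and 0 fell, with a median log2 fold change of 0.21, and of all genes 8.73% were called, 5.22% higher and 3.51% lower. At an unadjusted p under 0.05 the counts were 38 higher and 1 lower, and DESeq2 called 19 higher and 0 lower. Of the 11, 4 were in complex I, 2 in III and 5 in IV. Complexes II and V had 0 calls, with 2 and 5 members higher at an unadjusted p under 0.05 and 1 and 3 by DESeq2. The call count rests on single libraries. It was 2 without any 1 of the 3 shCon libraries, 5 without untreated library 1 or 3, 7, 7 and 6 without CrOE library 1, 2 or 3, and 30 without shCr library 3. The complex I count fell to between 0 and 2 in each fit without an untreated, shCon or CrOE library, was 1 without shCr library 1 and 12 without shCr library 3. That of complex IV was 1 without any 1 shCon library and 9 without shCr library 3, where complexes II and V had 2 and 4. Without shCr library 1 it was 8, with a median of 0.09, and of all genes 9.58% were called. Those 8 were Atp5j2, Cox5b, Cox6a1, Cox6b1, Cox8a, Ndufa7, Uqcr11 and Uqcrh. Uqcr11 and Cox8a, whose calls held in each of the 12 fits that left out 1 library, were higher in shCr cells by 0.36 ± 0.07 (adjusted p = 0.0066) and 0.36 ± 0.06 (adjusted p = 0.0038). In a model of only these 2 groups, Uqcr11 lost its call (adjusted p = 0.0557) and Cox8a kept it (adjusted p = 0.0385). For Cox8a the libraries stood at 153, 163 and 154 CPM in untreated, 113, 115 and 126 in shCon, 164, 141 and 149 in shCr and 98.5, 103 and 97.4 in CrOE cells. All 11 calls were among the 49 members with transcripts under 1000 bases, and 0 of the 28 longer members were called. Over all 1418 tested genes with transcripts under 1000 bases the median log2 fold change in this comparison was 0.13, and the part of transcript length was not tested.

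The subunits encoded by mitochondrial DNA showed no call. None of the 13 mt- rows was called in any of the 6 comparisons by edgeR or DESeq2, and 0 had an unadjusted p under 0.05. Their summed level was 4921, 16258 and 9917 CPM in untreated, 13417, 16426 and 16083 in shCon, 6297, 14365 and 17058 in shCr and 13119, 7055 and 14338 in CrOE libraries. All groups overlapped, and within the untreated, shCr and CrOE groups the libraries differed by more than the group means did. For mt-Co1, the catalytic subunit of complex IV, the log2 fold change in shCon over untreated cells was 0.63 ± 0.42 (adjusted p = 0.258). The median over the mt- rows was 0.59 in shCon, 0.33 in shCr and 0.18 in CrOE against untreated cells, opposite in sign to the medians of the nuclear members. With this spread, differences of that size were not detectable in 3 libraries a group.

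Genes that build and serve the chain were taken from lists of assembly factors, regulators, electron carriers, the tricarboxylic acid cycle and the mitochondrial ribosome. In CrOE against untreated cells, their 179 tested genes had 73 calls higher and 53 lower with a median of 0.09, where the members had 5 and 51. These are 40.8% higher and 29.6% lower, against 36.7% and 37% of all tested genes. In shCon against untreated cells they had 10 higher and 52 lower with a median of -0.12, which is 5.59% and 29.1% against 18% and 20.2% of all genes. The lists differed in that comparison. The tricarboxylic acid cycle had 0 higher and 10 lower of 14 (71.4% lower, median -0.23), and the mitochondrial ribosome 2 higher and 24 lower of 77 (31.2% lower). Regulators had 6 higher and 2 lower of 22. Complex I assembly factors had 8 higher and 4 lower of 14 in CrOE cells, with Ndufaf4 at 1.66 and Ndufaf3 at -1.08 on the log2 scale. Complex IV assembly factors had 5 higher and 8 lower of 22, with Sco2, a copper chaperone, at 1.73 and Pet100 at -1.33. Complex II assembly factors had 1 higher (Sdhaf3, 0.83) and 1 lower (Sdhaf4, -1.38) of 4, and those of complex III 1 higher and 2 lower of 6, with Uqcc3 at -0.94 and Uqcc2 at -0.51. Of the ATP synthase assembly and inhibitor genes, 1 of 4 was higher (Atpaf2, 0.49) and 1 lower (Atpif1, the inhibitor, -0.84). Electron carriers and ubiquinone synthesis had 7 higher and 4 lower of 16, with Cycs, cytochrome c, at 0.75 and Etfb at -1.66. The tricarboxylic acid cycle had 5 higher and 6 lower of 14 (Dld 0.65, Ogdh -1.11), and the mitochondrial ribosome 31 higher and 22 lower of 77 (40.3% and 28.6%; Mrps18b 1.12, Mrps6 -1.15).

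Regulators of mitochondrial gene expression had 14 higher and 5 lower of 22 in CrOE against untreated cells, with a median of 0.45. These are 63.6% higher and 22.7% lower, against 36.7% and 37% of all tested genes. Nrf1, a transcription factor of respiratory genes, rose from 26.5, 27.5 and 27.6 CPM in untreated to 51.8, 51.6 and 53.4 in CrOE libraries (log2 fold change 0.94 ± 0.06, adjusted p = 7e-09). Tfam, which packages and transcribes mitochondrial DNA, rose from 24.2, 22.1 and 25.5 to 42.3, 47.1 and 41.4 CPM (0.86 ± 0.11, adjusted p = 1e-05). Ppargc1a, a coactivator of mitochondrial biogenesis, stood at 5.46, 4.57 and 6.18 CPM in untreated, 9.05, 9.50 and 9.76 in shCon, 13.9, 14.0 and 14.3 in shCr and 10.9, 11.6 and 9.97 in CrOE libraries. All EV libraries were above the untreated ones, and the log2 fold changes were 0.80, 1.38 and 1.00, each called. Peo1, the mitochondrial DNA helicase, and Pprc1, a coactivator related to Ppargc1a, rose in CrOE cells by 1.43 and 1.12. Gabpa, the ETS factor, was not called there at 0.09 (adjusted p = 0.164), and its exons overlap Atp5j on the opposite strand. Ppargc1b and Esrra, which also overlap other genes, stood at -0.75 and -0.17 in CrOE cells (adjusted p = 0.0463 for Esrra). In CrOE cells, where 51 of 77 subunits were lower than in untreated cells, these regulators thus went different ways. Nrf1, Tfam and Ppargc1a were higher, Ppargc1b and Esrra were lower, and Gabpa was not called.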

How the data were processed

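The values are estimated counts by gene symbol, in 1 table that the authors deposited without scaling between libraries. RNA was poly(A)-selected and libraries were directional, per the labels' protocols. featureCounts and mm39 are named in the submitters' processing notes, while 39.8% of the values are not whole, so they were treated as estimated counts and rounded. The design had assumed raw counts, and the test was kept. Use of strand in counting is not given in the sources used here. Columns were matched to samples by name (0 value columns matched to no sample), and those headed Cripto were taken as CrOE by elimination.

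Genes were filtered by filterByExpr (14279 kept), scaled by TMM and tested with edgeR 4.0.16 (R 4.3.3, limma 3.58.1): glmQLFit and glmQLFTest on all 12 libraries, 8 residual degrees of freedom, Benjamini-Hochberg adjustment over all genes tested within each of 6 comparisons. A call is an adjusted p under 0.05. The common dispersion was 0.00793 (coefficient of variation 8.9%). The test was checked on simulated data. SE of log2 fold changes come from the F statistic. Totals were 25960054 to 37774020 counts, and the rarest members are the least precise.

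Named members were the core subunits, the isoforms and, per comparison, the 4 largest rises and 4 largest falls among called members whose libraries did not overlap and whose mean log2 CPM was 1 or more, plus the 3 members most like Cox6a2. Of the tested members, 1 is counted in the totals and not reported here by itself. Genes that share 31-base stretches or overlap exons were found with GENCODE mouse release 21, and promoters came from RefSeq. Alternatives were median-of-ratios size factors, library sizes without mt- rows, 2 other count filters, DESeq2 1.42.0, a replicate block, a model of 2 groups, a fold of at least 2 and each library left out. Leaving out the 3 libraries lowest in mt- rows was chosen after seeing the data. The members and gene lists were chosen with earlier results of these data known.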

Additional observations from a re-analysis of the deposited data

How the results depend on the processing

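The numbers of members called held within 1.5 times under most alternatives, and the exceptions concern the shCr group and a fold threshold. Requiring a fold of at least 2 left 1 (shCon against untreated), 1 (shCr against untreated), 9 (CrOE against untreated), 0 (shCr against shCon), 3 (CrOE against shCon) and 6 (CrOE against shCr). A model of only the 2 groups compared gave 11 calls in shCr against untreated and 1 in shCr against shCon. DESeq2 gave 19 in shCr against shCon. Leaving out the 3 libraries lowest in mt- rows, chosen after seeing the data, gave 43 calls and a median of -0.18 in shCr against untreated, and a median of 0.093 in shCr against shCon. Summed CPM of shCon cells with library sizes that leave out mt- rows was 1955 (complex I), 1189 (IV) and 1989 (V), beside 1934, 1176 and 1968 in the main fit. That of complex V with median-of-ratios factors was 1975. These settings rescale every CPM. The sums are listed because they moved by more than the SD between the shCon libraries, which was 18.3, 8.38 and 2.07. The cause of the shifts in calls and medians was not tested.

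Leaving out 1 library at a time gave 34 to 65 calls in shCon against untreated, 14 to 54 in shCr against untreated, 52 to 68 in CrOE against untreated, 2 to 30 in shCr against shCon, 32 to 50 in CrOE against shCon and 47 to 62 in CrOE against shCr. The medians ranged from -0.33 to -0.28, -0.23 to 0.0155, -0.44 to -0.38, 0.0892 to 0.28, -0.17 to -0.10 and -0.43 to -0.21 in the same order. For the 42 named members in 252 comparisons, 4775 of 5034 alternative values kept direction and call, 159 lost and 99 gained a call, and 1 reversed: Uqcrc2 in CrOE against shCr, at 0.13 (adjusted p = 0.0299) without shCr replicate 1 and -0.02 with it, where it was not called.

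Same-numbered libraries of different groups correlated, in their deviations from the group means, between -0.204 and 0.315, with 5 of 18 pairs over 0.1. Differently numbered ones lay between -0.364 and 0.350, with 7 of 36 over 0.1. With 3 libraries a group these ranges cannot exclude pairing by replicate number. With the replicate block, shCr against shCon had 17 calls. Members with few counts, such as Cox6a2 in untreated cells, are limited by depth.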
